A study of Mus musculus with 10 samples.

Results

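The genes described here are 9 transcription factor genes of the AP-1 and immediate early group: Fos, Fosb, Fosl1, Fosl2, Jun, Junb, Jund, Atf3 and Egr1. They were taken by symbol, as a family chosen with earlier results of these data known, and all 9 were found among the 23086 genes of the deposited table and passed the filter on low values, a mean of at least 10 normalized counts. RNA was sequenced from 10 mouse tumours of BBN963, a urothelial carcinoma cell line, 5 labelled ATM-WT (libraries A1 to A5) and 5 labelled ATM-KO (A11 to A15). The ATM kinase responds to breaks in both strands of DNA, and the comparison asks how tumours labelled as lacking it differ in messenger RNA. Tumours of both groups were taken at the same stated size and part of each was snap-frozen. The labels give no treatment, host strain or age, nor the number of knockout clones or of animals, so the p-values describe only the spread among these libraries, which may be technical.

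AP-1 is a dimer of basic leucine zipper (bZIP) proteins. JUN proteins pair with one another or with FOS proteins, whereas FOS proteins need a JUN partner to bind DNA. Many of these genes are immediate early genes: growth factors and stress switch them on within minutes, through MAP kinases acting on factors already in the cell, without new protein synthesis. Epithelia, urothelium among them, use AP-1 in proliferation, wound repair and squamous differentiation.

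The promoters of 4 of these genes are shown because the genes moved in opposite directions, Fos and Jun lower and Fosb and Atf3 higher in ATM-KO. Each sequence is the 250 bases before the RefSeq start (GRCm38.p6), read along the gene, for Fos (chr12:85473640-85473889, plus strand), Jun (chr4:95052223-95052472, minus strand), Fosb (chr7:19310046-19310295, minus strand) and Atf3 (chr1:191183334-191183583, minus strand). Capitals mark matches, on either strand, to the cyclic AMP response element half-site TGACG, the AP-1 variant TGACATCA or the TATA-type letters TATAA.
Fos promoter: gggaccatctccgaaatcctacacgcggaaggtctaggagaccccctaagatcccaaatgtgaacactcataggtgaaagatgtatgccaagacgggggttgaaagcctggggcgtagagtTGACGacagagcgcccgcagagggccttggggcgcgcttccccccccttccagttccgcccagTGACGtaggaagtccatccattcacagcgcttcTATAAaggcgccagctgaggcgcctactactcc
Jun promoter: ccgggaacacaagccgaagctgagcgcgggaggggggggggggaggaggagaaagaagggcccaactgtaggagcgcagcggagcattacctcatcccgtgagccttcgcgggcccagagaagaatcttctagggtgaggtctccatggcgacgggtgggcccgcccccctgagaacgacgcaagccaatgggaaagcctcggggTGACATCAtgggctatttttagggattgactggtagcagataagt
Fosb promoter: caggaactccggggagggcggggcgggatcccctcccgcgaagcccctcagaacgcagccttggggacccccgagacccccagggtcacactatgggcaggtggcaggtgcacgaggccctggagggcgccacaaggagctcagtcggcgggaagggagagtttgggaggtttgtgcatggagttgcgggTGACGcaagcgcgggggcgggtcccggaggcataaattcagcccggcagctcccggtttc
Atf3 promoter: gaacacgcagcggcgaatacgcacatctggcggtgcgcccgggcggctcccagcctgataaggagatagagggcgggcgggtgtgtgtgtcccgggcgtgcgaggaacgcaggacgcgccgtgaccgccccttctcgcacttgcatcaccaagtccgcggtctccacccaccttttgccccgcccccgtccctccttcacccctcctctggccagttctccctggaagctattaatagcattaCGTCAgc
The half-site TGACG was found in the windows of 4 of the 7 members with a window searched (Fos, Fosb, Junb and Atf3), and in 17.6% of 27025 promoters of the same length. TGACATCA was found in Jun alone of these windows and in 3.07% of all promoters, and TATAA in Fos alone and in 23.4%. The full palindrome TGACGTCA (1.56% of all promoters) and the classical AP-1 site TGACTCA (4.47%) were in none of the 7 windows. Of the genes with the half-site, Fos fell, Fosb and Atf3 rose, and Junb was not called. A part of the half-site in these changes was not tested. Fosl1 and Egr1 are the members with no window. The RefSeq start used can differ from the outermost start of the gene in GENCODE M21: counted along the gene, it lay at 671 bases for Fosl2, 34706 for Atf3 and -1210 (upstream) for Jund, so a search at another start of these genes could differ. Matches are letters in these windows, and binding was not measured.

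The epithelial markers, which define the labelled tissue, were far lower in the ATM-KO tumours: all 12 fell, Upk3a was listed at 0 in all 5 libraries, and the summed level of the 12 was 87687 to 248437 in ATM-WT but 2196 to 3844 in ATM-KO. The falls were unequal, with a median log2 fold change of -6.80. The smallest were -1.36 for Krt18, which kept 1710 ± 402 in ATM-KO, and -2.40 for Upk1b. Krt19 fell by -9.74, and the largest fall was -12.5 for Krt5. In bulk tumours, fewer cells of a type and less RNA per cell cannot be told apart. By the spacing of low values A2 rested on an estimated 8.82 M reads and the other 9 libraries on 20.6 to 28.3 M, while normalized totals were 20.2 to 22.3 M. A2 and A4 listed the most genes at 0. Atm messenger RNA did not separate the groups (log2 fold change -0.07 ± 0.26, limma adjusted p = 0.85), and the labels do not name the lesion, so it does not check the genotype.

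In ATM-KO tumours 3 of the 9 genes were higher (Fosl1, Atf3 and Fosb), 4 were lower (Fos, Jun, Fosl2 and Egr1), and Junb and Jund did not pass the test. With limma at an adjusted p under 0.05, 46.4% of the 16517 genes tested were called, 22.1% higher and 24.3% lower, so 7 calls among 9 genes are to be read against a table in which many genes were called. ATM-KO and ATM-WT values lay fully apart for 6 of the 9 genes, 2 higher and 4 lower, against 35.2% of all genes tested (17.0% higher and 18.2% lower). The median log2 fold change of the 9 was -0.03, and that of all genes tested 0.00467. Levels are normalized counts, given as mean ± SD over 5 libraries per group, and a log2 fold change is the ATM-KO mean of log2(value + 1) less that of ATM-WT, so that changes of low genes come out smaller. The exact permutation test, two-sided, runs over the 252 ways to split the libraries 5 and 5 and can give no p below 0.0079.

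**Figure D1:**
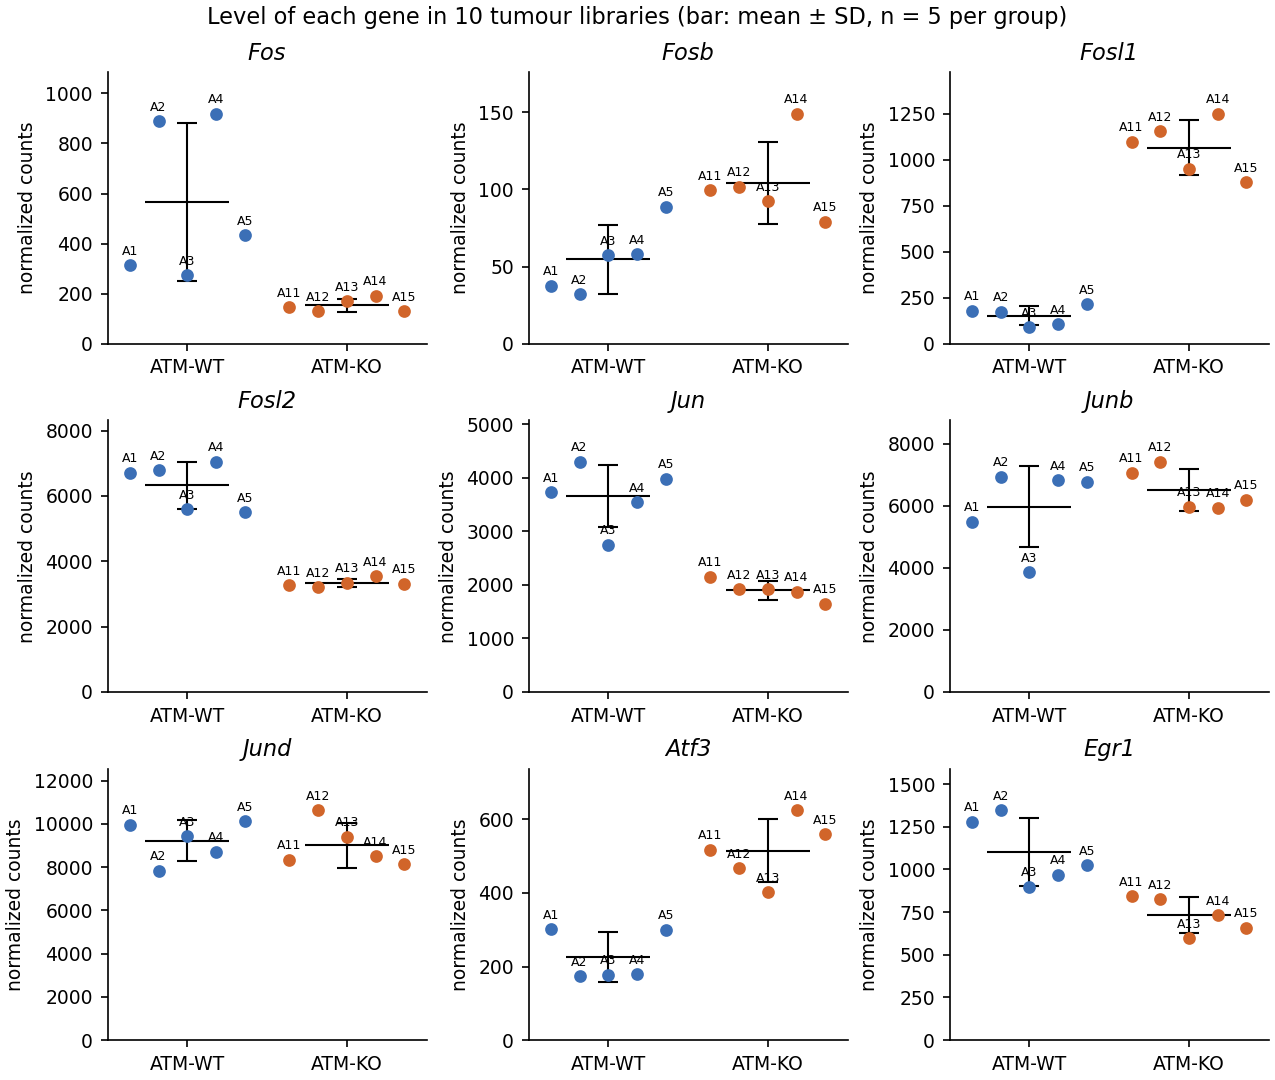
Normalized counts of each of the 9 genes (vertical axes, starting at 0) in the 5 ATM-WT and 5 ATM-KO libraries, 1 point per library with its name; bars are mean ± SD. Fosl1 and Atf3 are higher in every ATM-KO library than in any ATM-WT library, Fos, Fosl2, Jun and Egr1 are lower in every one, and Fosb, Junb and Jund overlap.

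Of the FOS family, Fosl1 had the largest change of the 9 genes. It encodes FRA-1, a FOS-related protein without the C-terminal activation domain of FOS that is linked to invasion in carcinomas. In tumours A1 to A5, labelled ATM-WT, Fosl1 stood at 180.4, 174, 91.3, 106 and 214 normalized counts, and in A11 to A15, labelled ATM-KO, at 1097, 1153, 952, 1249.9 and 878. Every ATM-KO library was at least 4 times any ATM-WT library, and no library of either group lay between. Fosl1 rose from 153 ± 52.3 to 1066 ± 151, a log2 fold change of 2.86 ± 0.23 (SE; 95% interval 2.36 to 3.35; limma adjusted p = 1.40e-06; exact permutation p = 0.0079). Of all genes tested, 1.20% rose by more. Fosl1 shares sequence with a neighbour on the opposite strand: in GENCODE M21, 1163 of the 2033 exon bases of Fosl1 (chromosome 19) lie within exons of Ccdc85b, and the labels do not say whether the libraries keep strand. Library by library, Ccdc85b measured 884, 667, 1262, 994 and 1214 normalized counts in ATM-WT (A1 to A5) and 2321, 2983, 2809.9, 2556 and 2866 in ATM-KO (A11 to A15). Ccdc85b rose as well, from 1004 ± 245 to 2707 ± 266, a log2 fold change of 1.46 ± 0.16 (SE; 95% interval 1.11 to 1.81; limma adjusted p = 1.50e-05). It exceeded Fosl1 by 3.84 to 13.8 times in ATM-WT and by 2.05 to 3.27 times in ATM-KO. Without strand, reads of the shared bases cannot be told apart, and the part of Ccdc85b reads in the Fosl1 counts was not tested.

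Fos, the founding member of the family and the classical immediate early gene, went the other way. Its normalized counts were 315, 889, 273, 919 and 434 in A1 to A5 (ATM-WT), against 147, 129.6, 171, 192 and 131 in A11 to A15 (ATM-KO). Libraries A2 and A4 stood at more than 2 times the other ATM-WT libraries, yet the lowest ATM-WT library, A3, was still above every ATM-KO library. Fos fell from 566 ± 314 to 154 ± 27.0, a log2 fold change of -1.70 ± 0.33 (SE; 95% interval -2.42 to -0.99; limma adjusted p = 0.00105; exact permutation p = 0.0079). Without libraries A2 and A4 the log2 fold change was -1.13 ± 0.21 (limma adjusted p = 0.00117), a smaller fall that still passed the test. In the promoter shown above, the half-site TGACG begins at positions -129 and -66 from the start and TATAA at -33. The coefficient of variation of Fos was 55.5% in ATM-WT and 17.5% in ATM-KO, where the median gene tested had 26.9% and 14.6%. Per kb of transcript, Fos exceeded Fosl1 by 1.54 to 7.69 times in the 5 ATM-WT libraries, and Fosl1 exceeded Fos by 6.31 to 10.1 times in the 5 ATM-KO libraries.

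Fosl2, which encodes FRA-2, fell as well. In tumours A1 to A5, labelled ATM-WT, Fosl2 stood at 6713, 6785, 5585, 7041 and 5509 normalized counts, and in A11 to A15, labelled ATM-KO, at 3261, 3198, 3339, 3549.6 and 3313. All ATM-KO libraries lay within a narrow band well below the lowest ATM-WT library. Fosl2 fell from 6326 ± 723 to 3332 ± 133, a log2 fold change of -0.92 ± 0.09 (SE; 95% interval -1.12 to -0.72; limma adjusted p = 7.81e-06; exact permutation p = 0.0079). Its coefficient of variation, 11.4% in ATM-WT and 3.99% in ATM-KO, was below the median gene in both groups. Fosb, the remaining member of the family, had the lowest level per length of the 9 genes in both groups. Library by library, Fosb measured 37.7, 32.2, 57.3, 58.1 and 88.8 normalized counts in ATM-WT (A1 to A5) and 99.5, 102, 92.2, 149 and 79.0 in ATM-KO (A11 to A15). ATM-WT library A5 lay above ATM-KO library A15, so the groups overlapped. Fosb rose from 54.8 ± 22.2 to 104 ± 26.6, a log2 fold change of 0.97 ± 0.31 (SE; 95% interval 0.29 to 1.66; limma adjusted p = 0.0225; exact permutation p = 0.016). The call was lost with sample weights (log2 fold change 0.70, limma adjusted p = 0.0827), without ATM-KO library A14 (log2 fold change 0.84, limma adjusted p = 0.0661) and without ATM-WT libraries A2 and A4 (0.81, limma adjusted p = 0.0565). With quantile normalization the log2 fold change of Fosb was 1.52 (limma adjusted p = 0.00131).

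**Figure D2:**
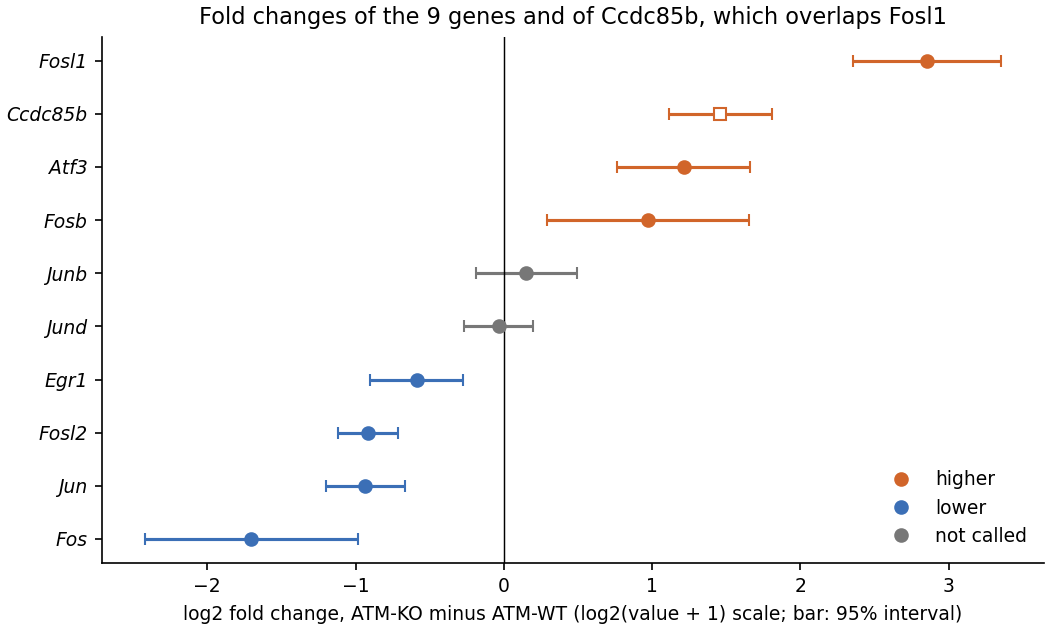
Log2 fold change of each of the 9 genes and of Ccdc85b (open square), ATM-KO less ATM-WT in log2(value + 1), with 95% intervals from the limma fit; colours give the call. Values run from -1.70 for Fos to 2.86 for Fosl1, and only the intervals of Junb and Jund include 0.

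In the JUN family, Jun fell while its relatives did not pass the test. Jun encodes the strongest activator of the family and is a target of the JNK kinases, which phosphorylate its product. Its normalized counts were 3725, 4295, 2746, 3542 and 3977 in A1 to A5 (ATM-WT), against 2149, 1914, 1916, 1871 and 1651 in A11 to A15 (ATM-KO). The groups did not overlap, and the gap between the lowest ATM-WT library, A3, and the highest ATM-KO library, A11, was wider than the SD of either group. Jun fell from 3657 ± 583 to 1900.5 ± 177, a log2 fold change of -0.93 ± 0.12 (SE; 95% interval -1.20 to -0.67; limma adjusted p = 5.34e-05; exact permutation p = 0.0079). The antisense transcript Junos, which shares 232 of 3189 exon bases with Jun, fell as well, from 89.7 ± 53.3 to 31.2 ± 15.5 (limma adjusted p = 0.0471). That call was near the threshold, and the groups overlapped, at 27.3 to 154 in ATM-WT and 12.5 to 48.2 in ATM-KO. Here too, without strand, reads of the shared bases cannot be told apart.

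Junb encodes a JUN protein that can oppose JUN on some promoters and is induced early. In tumours A1 to A5, labelled ATM-WT, Junb stood at 5482, 6943, 3869.6, 6819 and 6775 normalized counts, and in A11 to A15, labelled ATM-KO, at 7069.9, 7417, 5971, 5941 and 6194. ATM-WT library A3 was the lowest of all 10, and the other libraries of both groups were intermixed. Junb averaged 5978 ± 1319.5 and 6519 ± 680.1, a log2 fold change of 0.15 ± 0.16 (SE; 95% interval -0.19 to 0.49; limma adjusted p = 0.451; exact permutation p = 0.5). Jund, the JUN gene that most cells express without a stimulus, had the highest level per length of the 9 genes in both groups. Library by library, Jund measured 9969, 7839.9, 9442, 8713 and 10133 normalized counts in ATM-WT (A1 to A5) and 8352, 10641, 9412, 8514 and 8128 in ATM-KO (A11 to A15). The ranges of the groups overlapped over most of their width. Jund averaged 9219 ± 949 and 9009.5 ± 1034, a log2 fold change of -0.03 ± 0.11 (SE; 95% interval -0.27 to 0.20; limma adjusted p = 0.816; exact permutation p = 0.74). The intervals leave room for a change of Junb up to 0.49 and of Jund down to -0.27 on the log2 scale, and the sign of Jund turned with upper-quartile scaling (0.0227). The ratio of Jun to Junb normalized counts was 0.519 to 0.71 in ATM-WT libraries and 0.258 to 0.321 in ATM-KO libraries. Junb shares 173 exon bases with Prdx2 and Jund 877 with Gm11175, both on the opposite strand. Gm11175 was low, at 14.5 ± 9.48 in ATM-WT and 11 ± 2.84 in ATM-KO libraries, whereas Prdx2 measured 9769 ± 1830.3 and 7378 ± 1274 (limma adjusted p = 0.0518).

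The remaining genes also moved apart. Atf3 encodes a bZIP factor that pairs with JUN proteins, represses as a homodimer and is induced by many stresses. Its normalized counts were 302, 174, 178, 179 and 299.99 in A1 to A5 (ATM-WT), against 517, 468, 402, 625 and 559.9 in A11 to A15 (ATM-KO). The groups did not overlap, and within ATM-WT libraries A1 and A5 stood above the other three. Atf3 rose from 227 ± 67.7 to 514 ± 85.2, a log2 fold change of 1.21 ± 0.21 (SE; 95% interval 0.77 to 1.66; limma adjusted p = 4.06e-04; exact permutation p = 0.0079). Egr1 encodes a zinc finger factor outside AP-1 that responds to the same serum response factor and MAP kinase signals as Fos. In tumours A1 to A5, labelled ATM-WT, Egr1 stood at 1281, 1348, 898, 970.3 and 1025 normalized counts, and in A11 to A15, labelled ATM-KO, at 843, 826, 598, 731 and 660.1. The highest ATM-KO library, A11, was only slightly below the lowest ATM-WT library, A3. Egr1 fell from 1105 ± 199 to 732 ± 105, a log2 fold change of -0.59 ± 0.14 (SE; 95% interval -0.90 to -0.28; limma adjusted p = 0.00486; exact permutation p = 0.0079). Among the 7 called genes Egr1 had the smallest change.

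Levels of different genes were compared per kb of the longest coding transcript in GENCODE M21. In ATM-WT the order was Jund (5527 ± 569 normalized counts per kb), Junb (3304 ± 729), Jun (1147 ± 183), Fosl2 (968 ± 111), Fos (268 ± 149), Egr1 (246 ± 44.3), Atf3 (114 ± 34.1), Fosl1 (82.0 ± 28.0) and Fosb (14.5 ± 5.88). Neighbours whose libraries overlapped there were Jun with Fosl2, Fos with Egr1 and Atf3 with Fosl1. In ATM-KO Fosl1 (572 ± 80.9) stood at the level of Jun (596 ± 55.5) and Fosl2 (509.7 ± 20.3), with overlapping libraries. Below them, without overlap, came Atf3 (259 ± 42.9), Egr1 (163 ± 23.5), Fos (73.0 ± 12.8) and Fosb (27.6 ± 7.02), while Jund (5401 ± 619.96) and Junb (3603 ± 376) again led.

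The summed level of the FOS family overlapped between the groups while the shares of Fosl1, Fosl2 and Fos in it did not. The sum per kb was 1333 ± 235 in ATM-WT and 1182 ± 105 in ATM-KO, with ranges of 1048 to 1585 and 1060.5 to 1344. The share of Fosl1 was 6.28% ± 2.40 in ATM-WT (SD, range 3.58% to 9.66%) and 48.2% ± 3.18 in ATM-KO (44.4% to 51.7%). Fosl2 made up 73.4% ± 6.95 (66.5% to 81.5%) and 43.3% ± 3.16 (40.4% to 47.8%). Fos made up 19.2% ± 7.70 (11.6% to 27.5%) and 6.16% ± 0.813 (5.14% to 7.18%). Fosb stayed a minor member at 1.14% ± 0.573 and 2.31% ± 0.366. In the JUN family the share of Jun was 11.5% ± 1.35 in ATM-WT and 6.23% ± 0.617 in ATM-KO, while Jund held 55.6% ± 6.81 and 56.2% ± 2.63 and Junb 32.9% ± 5.75 and 37.6% ± 2.34. Fosl1 and Fosl2 overlapped in share within ATM-KO by this length and not by the length of all exons joined, which gave 55% and 36.4%. The shares are of messenger RNA, and that of Fosl1 includes any reads of Ccdc85b counted with it.

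**Figure D3:**
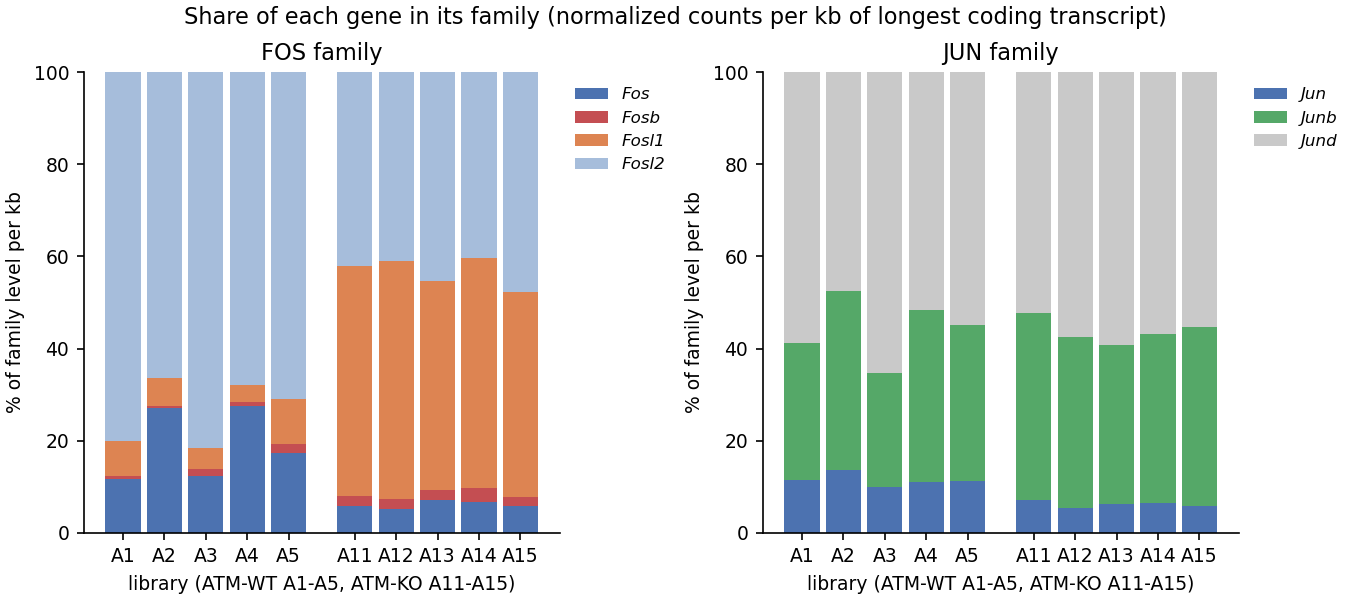
Share (%) of each gene in the summed level per kb of its family, 1 stacked bar per library, ATM-WT A1 to A5 at left and ATM-KO A11 to A15 at right of each panel. Fosl1 spans 3.58% to 9.66% in ATM-WT and 44.4% to 51.7% in ATM-KO, and the JUN family is led by Jund in all 10 libraries.

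Marker genes of the cell types a tumour can hold were read beside the 9 genes. Within ATM-WT the libraries ranked by Fos (A4, A2, A5, A1, A3) were in nearly the order of the epithelial sum: 248437 in A2, 197070.0 in A4, 145842 in A5, 88643 in A3 and 87687 in A1. The other genes did not all follow that order. Library A2 was highest for Jun, Junb and Egr1 but lowest for Fosb, Jund and Atf3. Fibroblast markers, of which 8 of 9 fell and 0 rose, ran the opposite way within ATM-WT, with 160149 in A2 and 579050.0 in A3, and their sum in ATM-KO was 37388 to 109098. Neutrophil markers fell in 4 of 5 tested (sums 1992 to 3617 and 578 to 1713). For macrophage markers 1 of 8 rose and 0 fell, for T and NK cell markers 1 of 7 rose and 0 fell, for endothelial markers 0 of 7 rose and 1 fell, and for skeletal muscle markers 0 of 7 did either. These 4 small counts changed with the library left out, macrophage rises between 0 and 4 and muscle rises between 0 and 2. All marker counts, those of the epithelial list included, stand against 22.1% higher and 24.3% lower over all genes tested. The part of cell content in the changes of the 9 genes was not tested.

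Among the 9 genes, A3 was the lowest ATM-WT library for 5 and the highest for 0, while A2 was the highest for 3 and the lowest for 3 (33.3% each). Over all genes tested A3 was the lowest ATM-WT library for 20.1%, and A2 the highest for 29.1% and the lowest for 28.2%, so the split of A2 was near that of the whole table. The 9 genes did not share 1 order of libraries: A2, near the top for Fos and highest for Jun, Junb and Egr1, was lowest for Fosb, Jund and Atf3. In ATM-KO, A14 was highest for 5 of the 9 genes (Fos, Fosb, Fosl1, Fosl2 and Atf3), and A15 lowest for 4, against 18.9% and 17.6% of all genes tested.

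Other bZIP factors that pair with or compete with AP-1 were split, as the 9 genes were: 4 rose and 4 fell among 12 tested, with a median of 0.16. This and the list counts that follow stand against 22.1% higher and 24.3% lower over all genes tested, and nothing particular to a list is read from them. In brackets are the means ± SD in ATM-WT and ATM-KO and the log2 fold change ± SE. Only 2 fell when any 1 of A2, A4, A5, A12, A13 or A14 was left out. The small MAF genes, whose products lack an activation domain, included Maff (from 465 ± 108 to 1065 ± 142, 1.22 ± 0.17) and Mafk (from 640.3 ± 70.6 to 1130.3 ± 154, 0.82 ± 0.12), which rose, while Mafg fell (-0.26). Batf3 (from 49.2 ± 27.3 to 193 ± 49.8, 2.14 ± 0.42), a partner of JUN proteins needed by cross-presenting dendritic cells, also rose. Jdp2 (from 851 ± 176 to 475 ± 64.9, -0.82 ± 0.16), a JUN dimerization partner that represses AP-1 sites, fell. Maff was also the gene whose profile over the 10 libraries was closest to Atf3.

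Among other immediate early genes 5 rose and 12 fell of 31 tested, where falls also outnumbered rises over the whole table (24.3% and 22.1%), and the median was -0.16. No tested gene of the list had a fitted fall as large as that of Fos. Without ATM-KO library A11 or A14, 3 rose. Zfp36l1 (from 6015 ± 1106 to 2478 ± 295, -1.27 ± 0.13), an RNA-decay factor, Trib1 (from 1208 ± 98.5 to 721 ± 53.3, -0.74 ± 0.10), a pseudokinase, Nr4a2 (from 312 ± 54.1 to 122 ± 17.1, -1.35 ± 0.18), a nuclear receptor, and Btg2 (from 859 ± 194 to 417 ± 29.0, -1.02 ± 0.15), an antiproliferative p53 target, fell. Further genes that fell were Sik1 (-1.60 ± 0.24), Myc (-1.17 ± 0.27) and Klf4 (-1.06 ± 0.22), chosen after their values were seen. Close relatives differed in sign: Nr4a3 rose by 2.05 ± 0.79 while Nr4a1 fell (-0.75 ± 0.21), and Egr3 rose by 0.79 ± 0.25 while Egr1 fell. The Nr4a3 call was near the threshold (limma adjusted p = 0.0488). Nr4a3 stood at 2.40 in A2, near the floor, against means of 69.9 ± 45.6 in ATM-WT and 188 ± 45.5 in ATM-KO. Ier2, Dusp1, Zfp36 and Socs3, classical early response genes, did not pass the test, with log2 fold changes of 0.00, -0.18, -0.09 and -0.01. These genes too were named after their values were seen.

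Upstream factors were mixed. Of serum response and ETS factors and EGR co-repressors 4 rose and 2 fell among 12 tested, with 1 fall when any 1 of A2, A4, A5, A11, A13 or A14 was left out. The ETS genes Etv4 (from 412 ± 107 to 1464 ± 108, 1.87 ± 0.18) and Elk1 (from 442 ± 122 to 1034 ± 51.5, 1.27 ± 0.17) and the serum response factor gene Srf (from 906 ± 160.5 to 1565 ± 140.3, 0.80 ± 0.13) rose, and Ets2 (from 2547 ± 371 to 1406 ± 148, -0.85 ± 0.12) fell. The products of Srf and Elk1 bind together at the serum response elements of Fos and Egr1, and their messenger RNA moved opposite to both. The other ELK genes of the list did not: Elk4 fell (-0.43 ± 0.14, limma adjusted p = 0.0275) and Elk3 did not pass the test (-0.05 ± 0.13). Elk3 and Elk4 were named after their values were seen. Of MAP kinase cascade genes 5 rose and 6 fell among 24 tested. Map2k6 (from 174 ± 17.3 to 504 ± 55, 1.53 ± 0.14), a p38 kinase activator, and Map3k7 (from 1671 ± 166 to 2854 ± 198, 0.78 ± 0.09), the TAK1 kinase, rose, and Mapk13 (from 966 ± 541 to 40.8 ± 15.7, -4.40 ± 0.42), a p38 isoform gene, fell. Of MAP kinase feedback inhibitors 4 rose and 2 fell among 14 tested, with 4 falls without A2 or without A3. The phosphatase genes Dusp14 (from 662 ± 119.6 to 1558 ± 65.0, 1.25 ± 0.12), Dusp5 (from 254 ± 85.9 to 911 ± 155, 1.88 ± 0.21) and Dusp8 (from 222 ± 67.0 to 534 ± 96.5, 1.29 ± 0.21) rose, and Spry1 (from 1429.7 ± 448 to 343 ± 68.9, -2.02 ± 0.21), a receptor signalling inhibitor, fell.

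Candidate AP-1 target genes, taken from general knowledge of the family, also went both ways: 11 rose and 5 fell among 24 tested, with a median of 0.24. Plaur (from 699.9 ± 222 to 2179 ± 155, 1.70 ± 0.20), the urokinase receptor gene, and Timp1 (from 2968 ± 1134 to 10958 ± 1244, 1.96 ± 0.22), a protease inhibitor gene, rose. Mmp9 (from 2794 ± 1025 to 477 ± 164, -2.55 ± 0.26), a gelatinase gene, fell, and so did Ivl (from 379.5 ± 292 to 1.25 ± 2.33, -7.31 ± 0.77), which encodes the squamous protein involucrin and is made by stratified epithelium. With ATM-KO values of Ivl near 0, its fitted change depends on the pseudocount. Ccnd1 (1.12 ± 0.15) rose and Ptgs2 (-2.13 ± 0.28) fell, both named after their values were seen. Heat shock genes, chaperones of another rapid stress programme, gave 7 higher and 1 lower of 12, against 22.1% and 24.3% of all genes tested. Rises included Hsph1 (from 1569 ± 360.1 to 3265 ± 362, 1.08 ± 0.14) and Hsp90aa1 (from 9372 ± 1012 to 17879 ± 1872, 0.93 ± 0.11), beside Hspb1 (from 2603 ± 298 to 4709 ± 429, 0.86 ± 0.10) and Hspa4l (from 1213 ± 119 to 2011 ± 175, 0.73 ± 0.10). Hspa1b, whose reads may be split with its near-identical copy Hspa1a, fell by 1.14 on the log2 scale. Hspa1a (-0.01), Dnajb1 (0.14), Dnajb4 (0.20) and Hspa8 (0.25) did not pass.

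**Figure D4:**
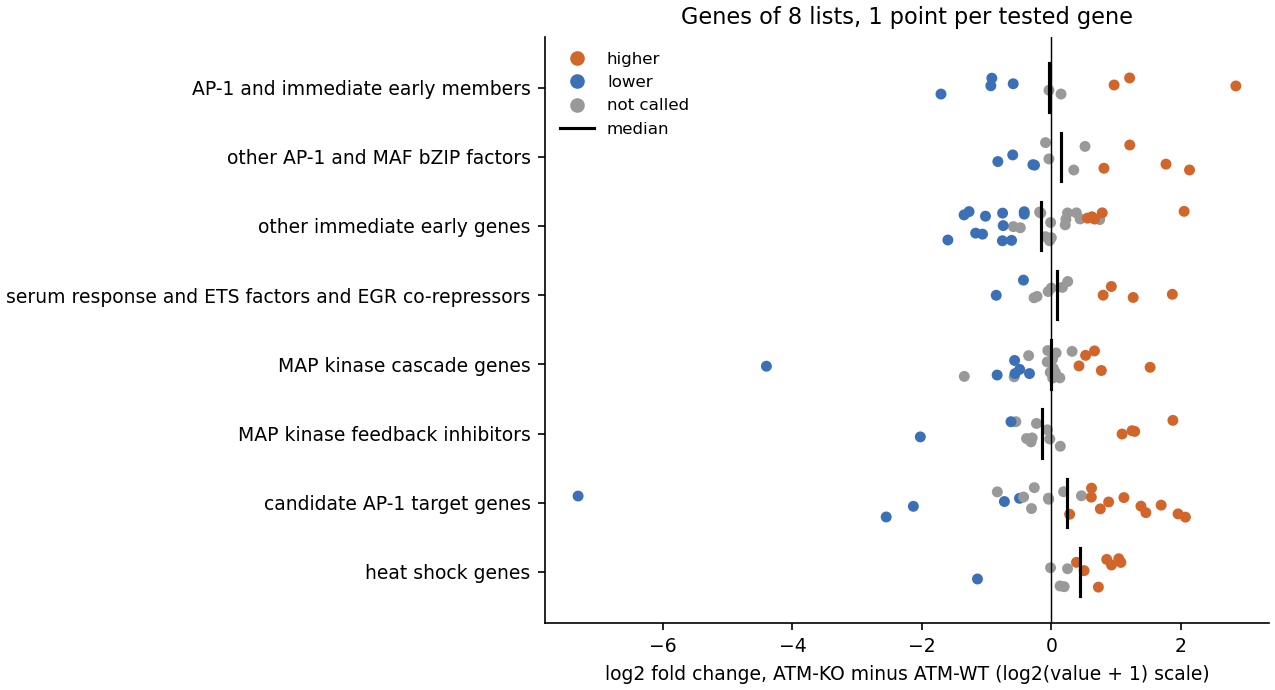
Log2 fold change (ATM-KO less ATM-WT, in log2(value + 1)) of every tested gene in 8 lists, 1 point per gene, coloured by call, with the median of each list as a black line. Each list holds both higher and lower genes, and list medians lie between -0.16 and 0.45.

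For each gene, the closest profiles over the 10 libraries were sought among 13348 genes with a mean of at least 50, by the root mean square difference of log2 values centred on each gene's mean. For Fos these were Ank (0.136) and Slc7a11 (0.190), for Fosl1 Hs3st3a1 (0.278) and Tbx20 (0.291), and for Fosb Il15 (0.237) and Anln (0.242). For Fosl2 they were Tnfaip8 (0.0842) and Pik3ip1 (0.0998), for Jun 2900026A02Rik (0.0835) and Pak4 (0.0901), and for Egr1 Kctd11 (0.0976) and Chd6 (0.120). For Atf3 they were Maff (0.150) and Mgarp (0.159), for Junb Mcmbp (0.105) and Smcr8 (0.105), and for Jund Entr1 (0.0658) and Mff (0.0774). A smaller value is a closer match, in log2 units. Fosl1 had the least close match of the 9, and none of the 9 was the closest match of another. The profiles span both groups, so a close match needs a similar fold change. For example, Ank had a log2 fold change of -1.71 and Fos -1.70, and Maff 1.22 and Atf3 1.21. Members of unequal fold change could therefore not match closely, and shared regulation was not tested. Ank, the closest to Fos, encodes a pyrophosphate transporter and fell from 4005 ± 1759.7 to 1138 ± 175. Hs3st3a1, the closest to Fosl1, encodes a heparan sulfate sulfotransferase and rose from 123 ± 45.2 to 628 ± 48.2.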

How the data were processed

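The deposited table gives, for each of the 10 libraries, normalized counts per gene, treated here as a signal. STAR, Salmon and DESeq2 were used, per the submitters' processing notes, in roles and versions not given in the sources used here, nor is the build. A column header shows genotype and library number but matches no single sample, so columns belong to a group only. Low values lay within 0.05 of whole multiples of 1 read's worth in only 59.3% to 69.1% of cases, so no count model was run and depths are rough estimates. Depth limits the precision of low values most.

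Genes with a mean of at least 10 were tested as log2(value + 1) by limma (version 3.58.1, R 4.3.3, eBayes with trend), with Benjamini-Hochberg adjustment over all 16517 and a threshold of 0.05. On simulated data modelled on these libraries (200 of the genes changed, 16270 tested) the fit recovered 53% of 2-fold and 79% of 4-fold changes. It called 6 unchanged genes. Far fewer genes changed in the simulation than were called in the data (46.4%), so these rates need not hold for the data. Named genes are the 9 members, up to 4 of smallest p per pathway list and 2 closest profiles per member. Not every gene this rule names is reported here. Members and lists were chosen with earlier results of these data known. Symbols altered on export were restored from GENCODE M21, and lengths and overlaps come from it. Promoters come from RefSeq (GRCm38.p6; 7 members used). Tables and figures used Python 3.11.15, numpy 2.4.6, pandas 2.3.3 and matplotlib 3.10.9. Alternatives covered the pseudocount, filter, scaling, eBayes settings, sample weights and left-out libraries.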

Additional observations from a re-analysis of the deposited data

How the results depend on the processing

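Fos, Fosl1, Fosl2, Jun, Atf3 and Egr1 kept their direction and call, and Junb its direction and lack of a call, under all 20 alternatives. The Fosb call was lost with sample weights (log2 fold change 0.70, limma adjusted p = 0.0827), without ATM-KO library A14 (0.84, limma adjusted p = 0.0661) and without ATM-WT libraries A2 and A4 (0.81, limma adjusted p = 0.0565). Quantile normalization gave 1.52 for Fosb, and leaving out 1 library gave 0.81 to 1.17, with adjusted p over all alternatives from 0.00131 to 0.0827. Jund, never called, changed sign with upper-quartile scaling (0.0227), and without ATM-WT library A5 (0.00154) or ATM-KO library A15 (0.00119), leaving out 1 library giving -0.0959 to 0.00154. The cause was not tested. Leaving out 1 library, Fos ranged over -1.92 to -1.48 and Fosl1 over 2.69 to 2.99. Counts of genes called stayed within 1.5 times of those reported for all genes, the 9 genes and the pooled lists. Quantile normalization moved the median of all genes from 0.00467 to 0.134 and their split to 4434 higher and 3376 lower. No paired analysis was possible because the table's columns do not carry the labels' sample numbers.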
